A study of Mus musculus with 14 samples.

Results

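The 4 Notch receptor genes (Notch1, Notch2, Notch3 and Notch4) and the 5 genes for their canonical ligands (Dll1, Dll3, Dll4, Jag1 and Jag2) were examined among 21757 protein-coding genes for consensus peaks of pSMAD1/5/9, SMAD4 and H3K27ac. The members were taken by name, and a peak was assigned to a gene when it overlapped the canonical transcript or the 20 kb on either side. The peaks came from CUT&Tag, which tags DNA where an antibody is bound on chromatin, in muscle stem cells (MuSCs) sorted as PAX7-GFP positive from female Pax7-EGFP transgenic C57BL/6N mice of 9 weeks and then kept in culture. All cells were first kept without serum for 6 h, with soluble BMPR1A, which binds BMPs, added at 200 ng/mL. They were then given either 100 ng/mL BMP6 or the vehicle (4 mM HCl with 0.1% BSA, called control) for 1 h. Each of the 6 lists joins 2 biological replicates of an antibody and a condition by the irreproducible discovery rate (IDR), so that positions and ranks within a list can be given but no spread between replicates of a count. The labels name no further genotype, and the transgene was carried by both groups.

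Notch receptors are membrane proteins that are cut when a ligand on a neighbouring cell binds them, and their intracellular part then joins RBPJ on DNA. Delta-like and Jagged proteins are those ligands. BMPs act through phosphorylated SMAD1, SMAD5 and SMAD9, which bind DNA together with SMAD4, and both pathways are known to hold back the differentiation of muscle progenitors. H3K27ac is a histone mark of active promoters and enhancers.

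As a check of the cells, H3K27ac peaks lay within 2 kb of the TSS at 8 of 8 marker genes of MuSCs and myoblasts in both conditions. For endothelial cells, which also use Notch receptors and ligands, this held for 1 of 8 markers in both conditions, and Pecam1, Cdh5, Kdr, Emcn, Tie1, Erg and Sox17 had no such peak. Of 6 blood cell markers, 1 had a peak after BMP6 and 2 in control. Of 4 markers each, 1 fibroadipogenic, 2 pericyte and 1 Schwann cell markers had a peak in both conditions. Among all protein-coding genes, 55.1% after BMP6 and 53.0% in control had an H3K27ac peak within 2 kb of the TSS.

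After BMP6, pSMAD1/5/9 peaks were listed at all 4 receptor genes and at Jag2, but not at Dll1, Dll3, Dll4 or Jag1. In control cells they were listed at Notch1, Notch2, Notch3 and Jag2. These were 12 of the 7339 peaks after BMP6 and 5 of the 949 in control. Thus 5 of the 9 members had a pSMAD1/5/9 peak after BMP6 against 29.1% of all protein-coding genes, and 4 of 9 in control against 5.97%. In both conditions a peak was listed at 4 of 9 members (5.57% of all genes), and after BMP6 alone at 1 of 9, Notch4 (23.5% of all genes). The regions of the members had a median length of 64.3 kb, against 56.3 kb for all genes. Within 20 kb of the TSS, a window of the same length for every gene, the count was 4 of 9 in both conditions, beside 22.4% of all genes after BMP6 and 4.08% in control.

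The list after BMP6 was far longer than that of control cells. When it was cut to its 949 strongest peaks, 3 of them lay at members, beside 5 in control. They were the peaks upstream of Jag2, downstream of Notch4 and downstream of Notch1, and 5.31% of all genes had a peak of this shortened list. At the stricter IDR threshold of 0.01, 6 of the 12 peaks after BMP6 and 1 of the 5 in control were left, the latter upstream of Jag2. The members were close to the whole lists in this, of which 50.1% and 14.9% of the peaks passed 0.01.

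All 5 control pSMAD1/5/9 peaks at members overlapped a peak listed after BMP6, with summits 59 to 149 bp apart. Conversely, 5 of the 12 peaks at members after BMP6 overlapped a control peak (41.7%, 95% Wilson interval 19.3 to 68.0%), while this held for 11.4% of the whole list. The intervals cover counting error over peaks only, and peaks of the same gene are not independent. The sequences of these 5 sites, which carried pSMAD1/5/9 whether or not BMP6 was given, are shown as 200 bp of GRCm39 centred on the summit after BMP6, in the direction of the member gene. Capitals mark matches on either strand to the words searched, which were GGCGCC and GGAGCC (SMAD sites rich in GC), GTCTAGAC (the SMAD palindrome), GTGGGAA and ATGGGAA (RBPJ), CAGCTG (E-box) and TGACTCA (AP-1, with TGAGTCA as its reverse complement).
Notch1 exon 3 and its flanks, chr2:26375293-26375492, minus strand: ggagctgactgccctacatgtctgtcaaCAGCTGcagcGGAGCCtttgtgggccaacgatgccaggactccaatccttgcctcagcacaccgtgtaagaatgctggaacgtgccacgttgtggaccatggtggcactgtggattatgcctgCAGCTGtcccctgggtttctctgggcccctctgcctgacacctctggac
Notch2 intron 1, chr3:97931729-97931928, plus strand: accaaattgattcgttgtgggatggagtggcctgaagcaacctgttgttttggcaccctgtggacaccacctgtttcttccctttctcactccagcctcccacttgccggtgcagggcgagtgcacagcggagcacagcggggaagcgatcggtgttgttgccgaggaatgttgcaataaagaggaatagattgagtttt
Notch3 intron 1 into exon 2, chr17:32383122-32383321, minus strand: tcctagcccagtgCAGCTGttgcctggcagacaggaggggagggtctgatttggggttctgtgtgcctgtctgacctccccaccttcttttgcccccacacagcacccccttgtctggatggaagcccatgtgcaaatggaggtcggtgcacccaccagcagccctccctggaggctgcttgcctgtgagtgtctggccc
Notch3 downstream, chr17:32327724-32327923, minus strand: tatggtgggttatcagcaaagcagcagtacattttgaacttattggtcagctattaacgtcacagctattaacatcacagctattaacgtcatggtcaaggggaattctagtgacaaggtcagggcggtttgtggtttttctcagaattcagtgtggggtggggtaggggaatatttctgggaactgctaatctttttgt
Jag2 upstream, inside Nudt14, chr12:112901555-112901754, minus strand: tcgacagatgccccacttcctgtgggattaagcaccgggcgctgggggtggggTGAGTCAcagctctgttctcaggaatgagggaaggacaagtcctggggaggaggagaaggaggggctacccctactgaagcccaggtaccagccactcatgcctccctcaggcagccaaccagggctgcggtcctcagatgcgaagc

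**Figure D1:**
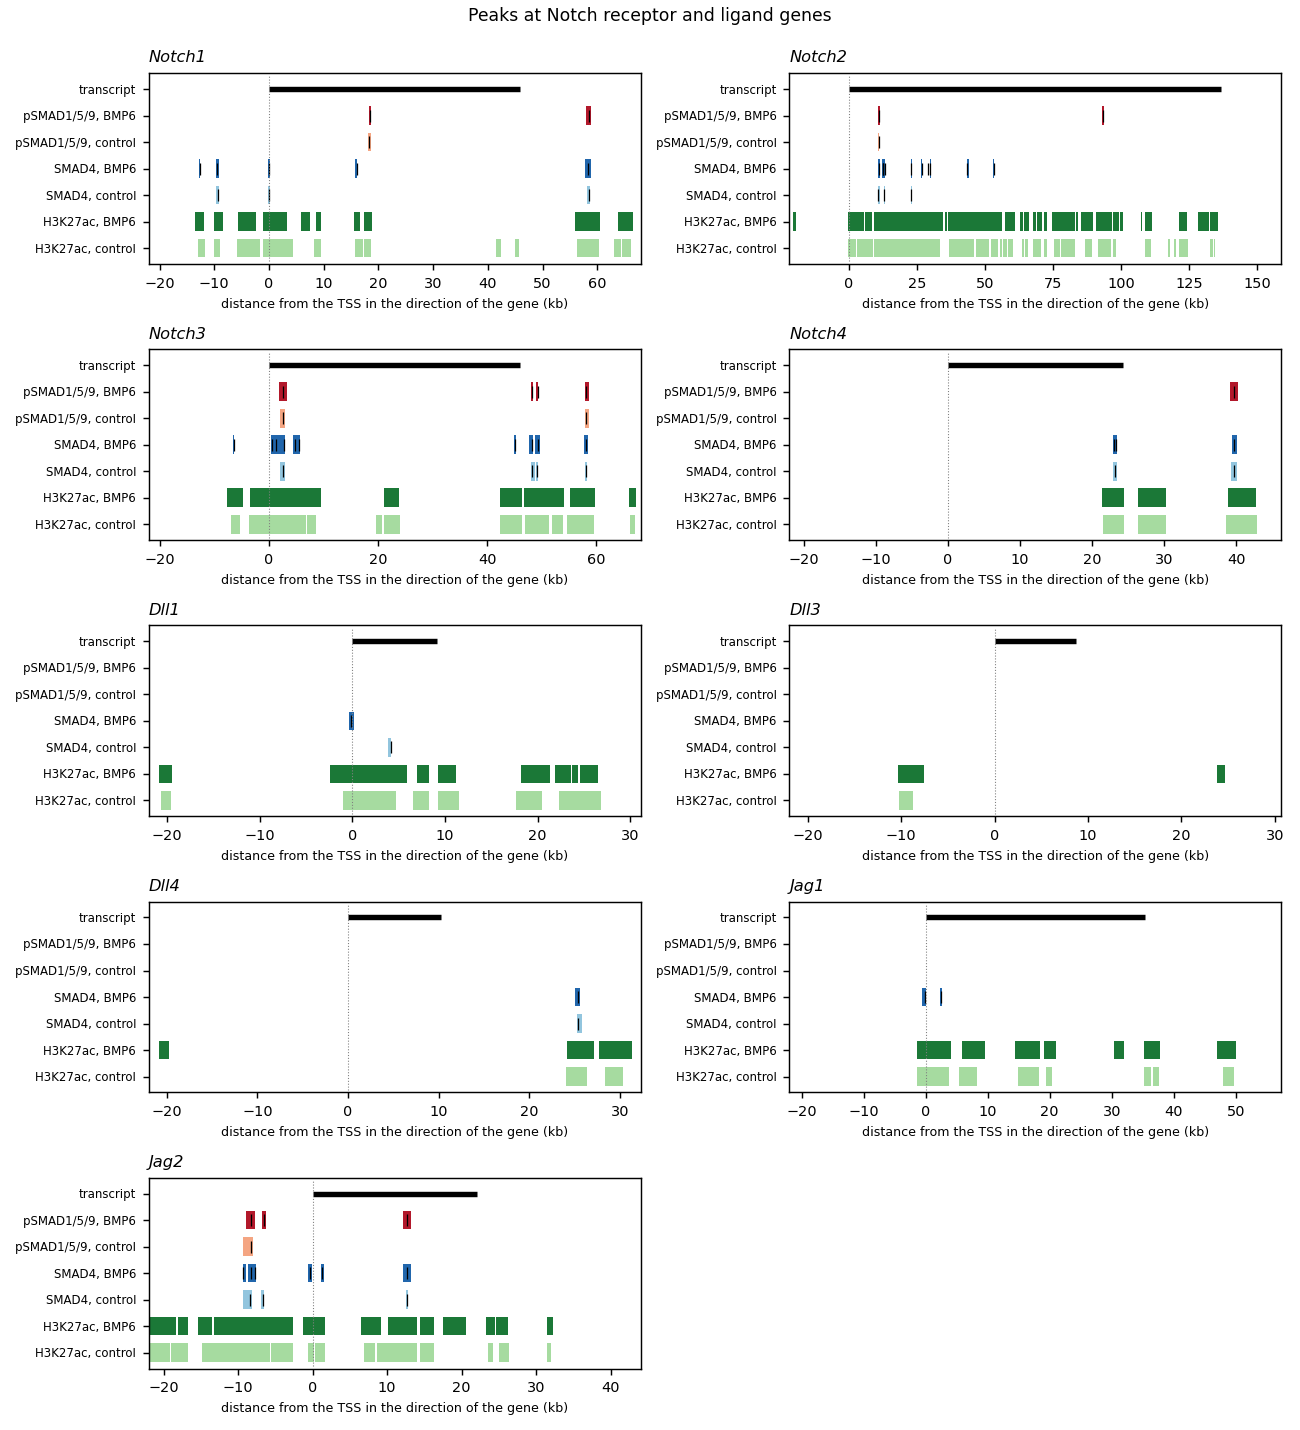
Positions of all peaks at the 9 genes. Each panel shows distance from the TSS in kb in the direction of the gene (cut 22 kb before the TSS and after the transcript end), the transcript as a black bar, and peaks of the 6 lists as coloured boxes with the summits of SMAD peaks as black ticks. The pSMAD1/5/9 boxes are found in the panels of Notch1, Notch2, Notch3, Notch4 and Jag2, and the SMAD4 boxes after BMP6 crowd in the first intron of Notch2 and around the start of Notch3.

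The pSMAD1/5/9 site with the highest consensus rank was upstream of Jag2, the gene of a Jagged ligand on the minus strand of chromosome 12 (112871421 to 112893437, 26 exons). Its summit lay 8218 bp before the Jag2 TSS after BMP6 and 8281 bp before it in control. The consensus peak ranked 147 of 7339 after BMP6 (2.00% of the list) and 73 of 949 in control (7.69%). After BMP6 the signal was 41933 in the first replicate column and 36269 in the second, and in control it was 37284 and 26875. Signal is a score of the peak caller without a common scale between lists, so these values are not compared across conditions. Both replicate columns put the peak near the top of their list, at ranks 232 and 85 after BMP6 and 61 and 96 in control.

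This site lies in intron 4 of Nudt14, which encodes an enzyme that splits UDP-glucose, and the Nudt14 TSS was 4123 bp from the summit, nearer than that of Jag2. An AP-1 word stood in the 200 bp window around the pSMAD1/5/9 summit after BMP6, without a SMAD or RBPJ word. The AP-1 word was found in 1 of 12 such windows at members, beside 15.5% of the list. The control window, centred 63 bp away, also held GGAGCC and CAGCTG, as did the windows of the nearest SMAD4 summits in both conditions. SMAD4 was listed here as well, with a control peak of 1263 bp that ranked 340 of 8577. After BMP6 this control peak was overlapped by SMAD4 peaks with summits 8306 and 9272 bp upstream, which ranked 3177 and 5966 of 12860. The H3K27ac peak over the site ranked 490 of 78050 after BMP6 and 529 of 67790 in control, with ranks of 132 and 1478 in the replicate columns after BMP6 and 790 and 478 in control.

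Jag2 had a pair of further pSMAD1/5/9 peaks, both listed only after BMP6. The peak in intron 5, 12665 bp after the TSS, ranked 1830, with ranks of 3114 and 981 in the replicate columns, and SMAD4 was listed there in both conditions. The peak 6569 bp upstream, also in intron 4 of Nudt14, ranked 5225, and a SMAD4 peak overlapped it in control but not after BMP6. The sequence of the intron 5 site is given because it was the highest ranked pSMAD1/5/9 peak listed only after BMP6 whose nearest TSS was that of a member, and it held the words GGCGCC and CAGCTG. Introns are those of the canonical transcript, and this window and the one upstream of Jag2 also touch an exon of another transcript, of Jag2 and of Nudt14. The site downstream of Notch4 is shown beside it as the promoter of a neighbouring gene.
Jag2 intron 5 with the edge of an exon of another transcript, chr12:112880672-112880871, minus strand: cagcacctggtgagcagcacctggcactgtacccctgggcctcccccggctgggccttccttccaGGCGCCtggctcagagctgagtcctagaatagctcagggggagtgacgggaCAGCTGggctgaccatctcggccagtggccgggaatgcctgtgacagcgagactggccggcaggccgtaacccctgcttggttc
Notch4 downstream, beside the Rnf5 TSS, chr17:34822809-34823008, plus strand: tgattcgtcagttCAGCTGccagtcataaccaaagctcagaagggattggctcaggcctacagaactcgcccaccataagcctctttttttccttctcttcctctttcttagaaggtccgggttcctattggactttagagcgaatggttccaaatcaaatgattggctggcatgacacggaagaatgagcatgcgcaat

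Among the receptors, Notch3 had the most pSMAD1/5/9 peaks, but at an IDR of at most 0.01 each receptor gene kept 1 after BMP6. Notch3 lies on the minus strand of chromosome 17 (32339794 to 32385893, 33 exons), and no other protein-coding TSS falls into its region. After BMP6, 4 peaks were listed, a number that 2.28% of all genes reached. The strongest lay in intron 1 beside exon 2, 2671 bp after the TSS, at rank 1246 after BMP6 (1020 and 1931 in the replicate columns) and 429 in control (418 and 430). The remaining peaks lay downstream of the transcript. The farthest, 58069 bp from the TSS, ranked 2956 after BMP6 and 664 in control. The others, 48210 and 49253 bp from the TSS, were listed after BMP6 only, near the end of the list at ranks 6700 and 7183. All 4 sites carried SMAD4 in both conditions.

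Notch1 lies on the minus strand of chromosome 2 (26347915 to 26393834, 34 exons). Its own pSMAD1/5/9 site lay in exon 3, 18441 bp after the TSS, and the control summit lay 119 bp away in intron 2. It ranked 4095 after BMP6 and 645 in control, and SMAD4 was listed there in neither condition. The signal in the replicate columns was 12389 and 5520 after BMP6 and 15031 and 10302 in control. The stronger peak in the region, 58445 bp after the Notch1 TSS at rank 593, was 151 bp from the TSS of Sec16a, which encodes a protein of endoplasmic reticulum exit sites. It was listed after BMP6 only, with ranks of 338 and 1759 in the replicate columns, and SMAD4 was listed there in both conditions, at ranks 669 (495 and 1113 in the replicate columns) and 659 (944 and 469).

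Notch2 is the longest member, on the plus strand of chromosome 3 (97920800 to 98057677, 34 exons). A pSMAD1/5/9 peak in intron 1, 11029 bp after the TSS, ranked 1940 after BMP6 (1778 and 2384 in the replicate columns) and 806 in control. SMAD4 was listed at the same place in both conditions, at ranks 1983 of 12860 (1511 and 3666 in the replicate columns) and 1292 of 8577 (1347 and 1343). A weaker peak in intron 11, 93343 bp after the TSS, ranked 6778 and was listed after BMP6 only, without SMAD4 in either condition. The TSS nearest to this peak was that of Adam30, 53833 bp away.

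Notch4, a receptor best known from endothelium, lies on the plus strand of chromosome 17 (34783220 to 34807477, 30 exons) among closely packed genes. The TSSs of Gpsm3, Pbx2, Ager, Rnf5 and Agpat1 also fall into its region. Its only pSMAD1/5/9 peak, at rank 199 after BMP6 (163 and 343 in the replicate columns), lay 39689 bp after the Notch4 TSS and 222 bp from that of Rnf5, which encodes a ubiquitin ligase of the endoplasmic reticulum. None of the SMAD4 or H3K27ac peaks counted at Notch4 had the Notch4 TSS as its nearest, and no H3K27ac peak covered that TSS.

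**Figure D2:**
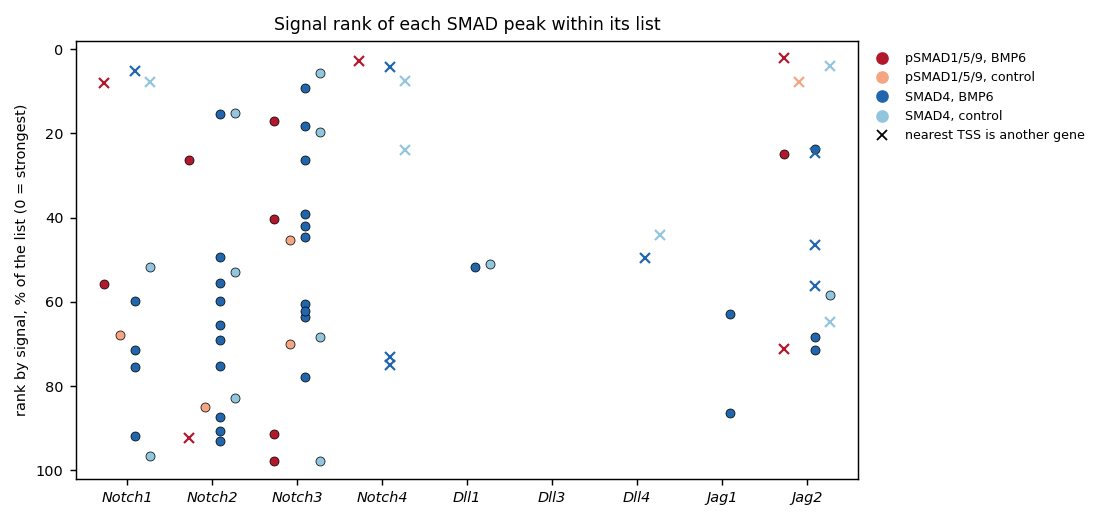
Rank of each SMAD peak at the 9 genes, as a percentage of its list, with the strongest peaks at the top. Circles are peaks whose nearest protein-coding TSS is that of the member and crosses those nearer to another gene. The pSMAD1/5/9 peaks nearest to the top after BMP6 are crosses, with ranks of 147, 199 and 593.

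If only peaks were counted whose nearest protein-coding TSS was that of the member, 7 of the 12 pSMAD1/5/9 peaks after BMP6 and 4 of the 5 in control were left, at 4 and 3 members. Over the 5 members with a peak, the median rank of the strongest peak was 8.08% of the list, and with this stricter assignment it was 25.7% over 4 members. The replicate columns differed in how high they ranked the strongest peaks, with medians over the 5 members of 4.61% in the first and 24.0% in the second column. The order of members within these ranks is therefore firm only for large gaps. Jag2 and Notch4 stood in the top 5% in both columns. The ranges between columns overlapped for Jag2 and Notch4, Notch4 and Notch1, Notch1 and Notch3, and Notch3 and Notch2. In the first column Notch4 stood ahead of Jag2. By at least 1 column the rank moved more than 1.5 times from that of the consensus for 6 of the 12 pSMAD1/5/9 peaks at members after BMP6 and for 0 of the 5 in control. This held for 3 of 38 and 2 of 17 SMAD4 peaks and for 12 of 85 and 7 of 88 H3K27ac peaks, after BMP6 and in control.

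**Figure D3:**
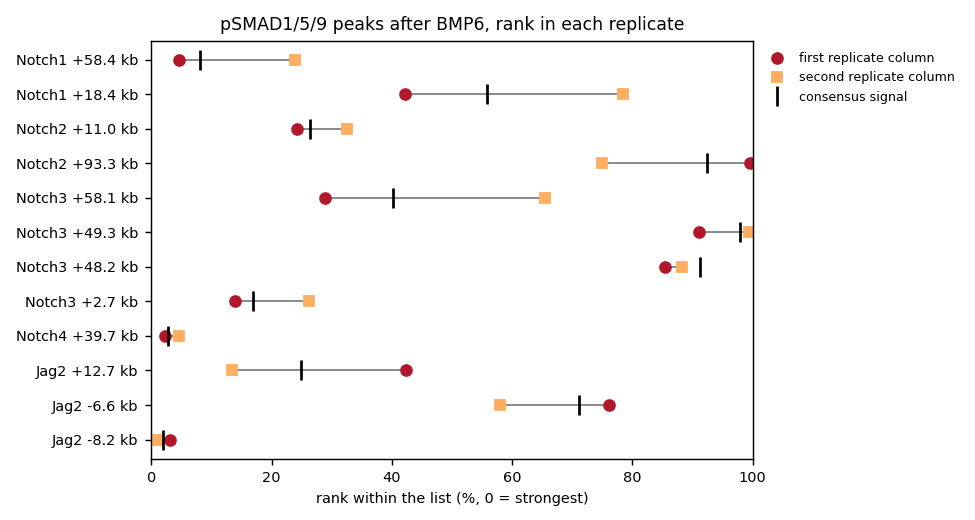
Rank of the 12 pSMAD1/5/9 peaks at members after BMP6 by the signal of each replicate column (circle and square) and of the consensus (black tick), as a percentage of the list, where 0 is the strongest. The Jag2 site 8.2 kb upstream and the Notch4 site at 39.7 kb lie near 0 in both columns, and the Notch1, Notch3 and Jag2 sites in the middle of the list spread widely between columns.

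SMAD4 peaks were more frequent. After BMP6, 38 were listed at 8 of 9 members (39.3% of all genes had one), and in control 17 at 7 of 9 (30.8% of all genes). Only Dll3 (minus strand of chromosome 7, 27992978 to 28001673, 9 exons) had none in either condition, and Jag1 had none in control. More SMAD4 peaks after BMP6 than in control were listed at 6 of 9 members, which was the case for 24.0% of all genes. The count went from 3 to 5 at Notch1, from 3 to 10 at Notch2, from 4 to 10 at Notch3, from 2 to 3 at Notch4, from 0 to 2 at Jag1 and from 3 to 6 at Jag2, where the first number is control. At Notch4 the peaks 23010 and 23300 bp after the TSS overlapped a single control peak, and no new SMAD4 site was listed there. At Jag2 the peaks 8306 and 9272 bp upstream likewise overlapped a single control peak. At least 10 SMAD4 peaks after BMP6 were counted at 0.303% of all genes. The Notch2 region is long, at 177 kb beside the median of 56.3 kb, and per 10 kb it held 0.565 SMAD4 peaks after BMP6, beside 0.582 at Notch1, 0.967 at Jag2 and 1.16 at Notch3. The SMAD4 list after BMP6 was also longer, with 12860 peaks beside 8577. In the 8577 strongest SMAD4 peaks after BMP6, as many as in control, 24 lay at members and all 8 genes still had one, beside 31.3% of all genes. The Notch1 peaks at ranks 9173, 9700 and 11798 and the Notch4 peaks at 9400 and 9655 fell out. The counts at Notch1 and Notch4 were then no higher than in control, while those at Notch2, Notch3, Jag1 and Jag2 stayed higher.

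Of the 38 SMAD4 peaks after BMP6, 17 overlapped a control SMAD4 peak (44.7%, interval 30.1 to 60.3%), close to the 45.5% of the whole list. Of the 17 control peaks, 15 overlapped one after BMP6 (88.2%, interval 65.7 to 96.7%), beside 69.7% of the whole list. The peaks without a control counterpart were mostly weak. At Notch2, those in introns 1 and 2 ranked between 6361 and 11644. At Notch3, the SMAD4 peak 1284 bp after the TSS, in intron 1, was the strongest of them at rank 2360, with ranks of 2022 and 3445 in the replicate columns.

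SMAD4 was also listed close to the TSS. Within 2 kb of the TSS, a SMAD4 peak was listed after BMP6 at 5 of 9 members (Notch1, Notch3, Dll1, Jag1 and Jag2), beside 17.8% of all genes. In control cells this was so for Notch1 alone, 1 of 9, beside 12.4% of all genes. A SMAD4 peak after BMP6 covered the TSS itself at 3 of 9 members (Notch1, Dll1 and Jag1), beside 13.1% of all genes. Dll1 lies on the minus strand of chromosome 17 (15587276 to 15596386, 11 exons) and Jag1 on the minus strand of chromosome 2 (136923373 to 136958693, 26 exons). At Dll1, the ligand gene whose expression is known to oscillate in activated MuSCs, the summit lay 129 bp before the TSS at rank 6666, while the control peak lay in intron 4, 4135 bp after the TSS, at rank 4382. At Jag1 the summits lay 71 bp before and 2539 bp after the TSS, at ranks 8095 and 11107. At Jag2 they lay 317 bp before and 1328 bp after it, at ranks 8795 and 9174. Of the peaks named here for Dll1, Jag1 and Jag2, the control peak of Dll1 alone passed the IDR threshold of 0.01. At Notch1 the peak after BMP6, 40 bp before the TSS, ranked 7679 and did not pass it either. The Notch1 peak at the TSS in control ranked 8289 of 8577. Both Jag2 peaks ranked beyond 8577, the length of the control list. At Notch3 the peak 1284 bp after the TSS ranked 2360. At Dll4, the gene of an endothelial ligand on the plus strand of chromosome 2 (119156170 to 119166443, 11 exons), the single SMAD4 peak of each condition was that of the Chac1 promoter, 167 bp from the Chac1 TSS after BMP6 and 125 bp in control.

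**Figure D4:**
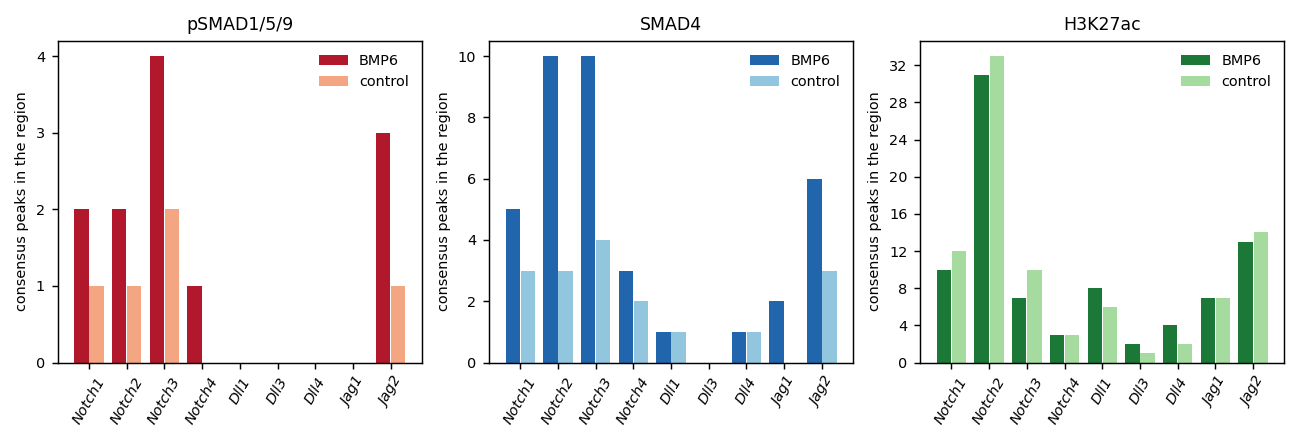
Number of consensus peaks at each gene in the 3 pairs of lists, on separate vertical axes that start at 0. The SMAD4 bars after BMP6 reach 10 at Notch2 and Notch3, beside 3 and 4 in control, while no pSMAD1/5/9 bar is present at Dll1, Dll3, Dll4 and Jag1.

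Merging the SMAD peaks of the 4 lists gave 39 sites at members, and 32 of them had the member TSS as the nearest. Of these 39 sites, 4 were listed in all 4 SMAD lists, at Notch2, Notch3 (both the intron 1 site and the farthest downstream site) and Jag2. SMAD4 without pSMAD1/5/9 was found at 27 sites, 20 of them after BMP6 only, and these included 7 at Notch2 and 6 at Notch3. pSMAD1/5/9 after BMP6 was found at 12 sites, 9 of which carried SMAD4 after BMP6, and 2 had SMAD4 in neither condition, in Notch1 exon 3 and Notch2 intron 11. The share of pSMAD1/5/9 peaks that overlapped SMAD4 after BMP6 was 75.0% at members (interval 46.8 to 91.1%) and 73.2% in the whole list. Conversely, 26.3% of the SMAD4 peaks at members after BMP6 overlapped a pSMAD1/5/9 peak (interval 15.0 to 42.0%), beside 42.7% of the whole list.

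**Figure D5:**
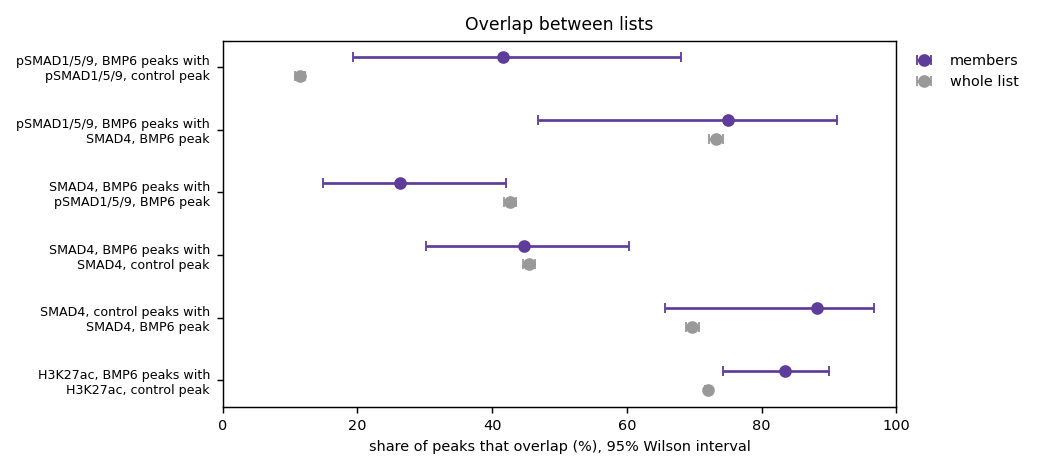
Share of peaks of a list that overlapped a peak of another list, in percent, for peaks at members (purple) and for the whole list (grey), with 95% Wilson intervals. The pair for pSMAD1/5/9 after BMP6 with control lies apart, at 41.7% and 11.4%, and the pair for pSMAD1/5/9 with SMAD4 after BMP6 nearly coincides, at 75.0% and 73.2%.

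All 39 SMAD sites overlapped H3K27ac in both conditions, as did 98.2% of all pSMAD1/5/9 peaks and 95.7% of all SMAD4 peaks after BMP6 with the H3K27ac list after BMP6. H3K27ac peaks were listed at all 9 members in both conditions (74.8% of all genes after BMP6 and 73.4% in control), 85 after BMP6 and 88 in control. A peak covered the TSS of 6 of 9 members in both conditions, beside 51.4% and 49.5% of all genes. Notch1, Notch2, Notch3, Dll1, Jag1 and Jag2 had the mark at the TSS, and Notch4, Dll3 and Dll4 did not. For the latter 3, all H3K27ac peaks counted had another gene as the nearest TSS (Gpsm3, Pbx2 and Rnf5 at Notch4, Eid2b and Timm50 at Dll3, Vps18 and Chac1 at Dll4).

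By the consensus signal, the strongest H3K27ac peak of the family lay in Notch2. After BMP6 it spanned 25060 bp with its summit 11846 bp after the TSS, close to the pSMAD1/5/9 site of intron 1. It ranked 97 of 78050, although its ranks in the replicate columns were 2988 and 51. In the first column after BMP6 Jag2 stood ahead, with a best rank of 132 beside 1006 at Notch2. In control, the strongest Notch2 peak had its summit 11698 bp after the TSS, a width of 9.9 kb and rank 377 of 67790. At Notch3, the H3K27ac peak over the TSS and the intron 1 site was 13.0 kb wide at rank 1834 after BMP6 and 10.4 kb wide at rank 4132 in control. The replicate columns put it at ranks 3721 and 1482 after BMP6 and 5183 and 3269 in control, so that the ranges overlapped. Of the 85 peaks after BMP6, 71 overlapped a control peak (83.5%, interval 74.2 to 89.9%), beside 72.0% of the whole list. Peak widths came in steps of 70 bp in the list after BMP6 and 100 bp in that of control cells, so widths are not compared between conditions.

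Words matching the known SMAD sites were not more frequent at the pSMAD1/5/9 summits of members after BMP6 than in the whole list. GGCGCC or GGAGCC was found in 3 of 12 windows of 200 bp after BMP6 (25.0%), beside 30.2% of the list, and GTCTAGAC in none, beside 0.518%. The E-box word CAGCTG, the form that MYOD is known to prefer, stood in 5 of 12 windows, beside 31.1% of the list. None of these 12 windows held GTGGGAA or ATGGGAA, beside 5.60% and 3.19% of the list. At the SMAD4 summits after BMP6, GGCGCC or GGAGCC was found in 15 of 38 windows (39.5%), beside 28.4% of the list, and CAGCTG in 13 of 38, beside 29.1%. RBPJ words were found at 4 SMAD4 summits after BMP6. GTGGGAA stood in 3 of 38 windows, beside 5.60% of the list, and ATGGGAA in 1, beside 3.31%. All 4 were at receptor genes, which held 28 of the 38 SMAD4 peaks. They lay at Notch1 12698 bp upstream and at Notch3 6396 bp upstream, 601 bp and 5481 bp after the TSS. In control cells, CAGCTG stood in 10 of 17 SMAD4 windows, beside 32.7% of the list, and in 4 of 5 pSMAD1/5/9 windows, beside 35.8%. GGCGCC or GGAGCC stood in 5 of 17 and 2 of 5 of these control windows, beside 28.2% and 29.3%. GTGGGAA stood in 1 of 17 control SMAD4 windows and 1 of 5 control pSMAD1/5/9 windows, beside 5.25% and 4.95% of the lists, and both of these were at the Notch3 intron 1 site. Windows of overlapping peaks share sequence, and a match describes letters only.

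Among 51 further genes of the Notch pathway, 21 had a pSMAD1/5/9 peak after BMP6 (41.2%, beside 29.1% of all genes) and 2 in control (beside 5.97%). A SMAD4 peak was listed at 32 of them after BMP6 (62.7%, beside 39.3%) and at 29 in control (beside 30.8%). By role, pSMAD1/5/9 peaks after BMP6 were listed at 5 of 9 genes for receptor cleavage and 2 of 7 of the nuclear complex. They were also listed at 3 of 6 corepressors, 4 of 12 genes for endocytosis and turnover and 2 of 5 for glycosylation. The remaining groups were non-canonical ligands, with 1 of 5, and genes grouped as targets, with 4 of 7. Aph1b and Aph1c, both counted for cleavage, had the same best ranks of 1035 for pSMAD1/5/9 and 1481 for SMAD4. A peak shared by both is counted for each gene. The best pSMAD1/5/9 ranks among the 51 genes belonged to Heyl (167), Hes6 (171) and Rbpj (248). Heyl and Hes6 belong to the Hes and Hey family, and Rbpj encodes the DNA-binding partner of the Notch intracellular domain. Of these 21 genes, 19 had no pSMAD1/5/9 peak in control, as did 5110 of the 6322 protein-coding genes with a peak after BMP6, while of the 5 members with a peak after BMP6 only Notch4 had none. The list was drawn up with earlier results of these data known.

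The genes whose pattern was most like that of a member, by the smallest Euclidean distance over 12 values (number of peaks and best rank in each of 6 lists), were ENSMUSG00000144232 and Kxd1 for Notch1, at distances of 0.726 and 0.772. For Notch2 they were Col5a1 and Dnm3 (1.36 and 1.37), for Notch3 Btg2 and BC034090 (1.11 and 1.15), for Notch4 Ptbp1 and Plppr3 (0.914 each), and for Jag2 Nup133 and Baiap2l1 (1.05 and 1.24). ENSMUSG00000144232 and Kxd1 overlap each other, and Ptbp1 and Plppr3 are neighbours, so each of these pairs shares its peaks.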

How the data were processed

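CUT&Tag lists of 12 of 14 samples were used, grouped by antibody and treatment as labelled, and the 2 libraries without antibody were not analysed here. The authors drew the same number of reads for all libraries of an antibody, mapped them with Bowtie2 2.5.4 to GRCm39, processed them with SAMtools 1.21 and bedtools 2.31.1, called peaks per replicate with JAMM and joined both replicates by IDR at 0.05. The deposited signal is a score without fixed range, the sum of both replicate values, and the lists give the IDR as −log10. Sequencing depth per peak cannot be read from them, as they give no number of reads.

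Transcripts were canonical ones of GENCODE vM39 on GRCm39, also the source of the sequences. Positions are 1-based, and overlap meant at least 1 bp. Ranks are by signal within a list. Wilson 95% intervals came from scipy 1.17.1, with Python 3.11.15, pandas 2.3.3, pysam 0.24.0 and matplotlib 3.10.9. Named genes were the 9 members, the genes with the TSS nearest to a counted peak, the 3 best ranked other pathway genes and the 2 most alike genes per member with a pSMAD1/5/9 peak after BMP6. Interval overlap and the motif search were tested on simulated data, and distances from the TSS on planted positions. Alternatives covered the IDR threshold, the region, the assignment, list length, overlap, replicate columns and motif windows. With 1 list per condition no test between conditions was made. Members and lists were chosen with earlier results of these data known.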

Additional observations from a re-analysis of the deposited data

How the results depend on the processing

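With 1 list per condition and no read counts, depth limits each list to an unknown extent, a missing peak is not absence of binding, and the cause of none of the changes with a setting was tested. Of 93 recomputed values, 65 stayed within 1.5 times the count or within the interval or replicate spread, and 28 moved. At an IDR of at most 0.01, pSMAD1/5/9 peaks at members went to 6 after BMP6 and 1 in control (at 1 member), SMAD4 peaks to 16 and 9, and the overlap shares to 100% (pSMAD1/5/9 with SMAD4), 68.8% (SMAD4 with control) and 94.3% (H3K27ac with control). With 5 kb flanks, pSMAD1/5/9 peaks numbered 7 after BMP6 and 3 in control, and control SMAD4 peaks 10. Within 20 kb of the TSS, there were 6 pSMAD1/5/9 and 23 SMAD4 peaks after BMP6, 9 SMAD4 peaks in control, and 36 and 37 H3K27ac peaks. With the member TSS as the nearest, 7 pSMAD1/5/9 peaks after BMP6, 11 control SMAD4 peaks, and 54 and 58 H3K27ac peaks were left, and the median strongest rank was 25.7%. With lists of equal length, 3 pSMAD1/5/9 peaks at 3 members and 24 SMAD4 peaks remained after BMP6. With an overlap of at least 50% of both peaks, the shares were 28.9% (SMAD4 with control) and 70.6% (H3K27ac with control). With each replicate column in turn, the median strongest rank was 4.61% and 24.0%. In 100 bp windows, 10 in place of 18 SMAD windows held GGCGCC or GGAGCC. The alternatives for the other pathway genes were chosen after seeing the data, and gave 16 to 29 genes in place of 21. No paired analysis was possible because the replicate columns carry no replicate number.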

Other observations

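At the 5 sites with pSMAD1/5/9 in both conditions, SMAD4 was listed in both conditions at 4, and Notch1 exon 3 was the exception. The SMAD4 peak at the first of the Notch3 sites ranked 1190 of 12860 after BMP6 and 493 of 8577 in control. At Notch4, SMAD4 peaks with summits in the last intron and the last exon of the canonical transcript ranked 9400 and 9655 after BMP6, and the single control peak that both overlapped ranked 2062 of 8577.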
